A study of Mus musculus with 4 samples.

Results

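*Alas2*, *Slc4a1*, *Klf1*, *Gata1*, *Ermap*, *Epb42*, *Sptb* and *Tfrc* are 8 genes that red cell precursors transcribe, and they are described here by PRO-seq (precision nuclear run-on sequencing) of postnatal mouse liver. In PRO-seq, polymerases that are engaged on genes add labelled nucleotides to their RNA in isolated nuclei, so the reads measure ongoing transcription rather than stored mRNA. The 8 genes were named with earlier results of these libraries in view, and the row of each gene was chosen by its promoter-proximal value averaged over the libraries. Differences between genotypes in these genes are therefore a description of the genes that were picked. All 8 were found among 20642 gene symbols, 6 by symbol and 2 under the older names Epb4.2 for *Epb42* and Spnb1 for *Sptb*, matched through their RefSeq accessions.

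The livers came from C57BL/6 mice on postnatal day 14. There were 2 libraries of WT mice (+/+) and 2 of *Hdac3* KO mice, which carried floxed alleles or a floxed and a null allele (F/F and F/-). Per the labels, both genotypes carried Alb-Cre, a transgene in which the albumin promoter drives Cre in hepatocytes, so blood cells of the liver are not its target. Each library was 1 pool of nuclei from several mice, so no p-value measures the spread between mice. The tests draw a gene's spread toward that of other genes at a similar level. A p-value therefore does not rest on the gene's own spread between 2 pools alone. The libraries are called WT1, WT2, KO1 and KO2. They held 16628518 to 26190040 reads on genes, the fewest in KO2, which also had the largest share of promoter-proximal reads, 17.0% against 9.38% to 13.6% in the others. Gene body reads of the targeted gene, *Hdac3*, were 665 and 648 in WT and 609 and 582 in KO (log2 fold change -0.14, standard error (SE) 0.13, limma adjusted p = 0.413), so the genotypes rest on the labels.

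Around birth the liver is a site of red cell production, which then moves to the bone marrow and spleen. Red cell precursors depend on the transcription factors GATA1 and KLF1, which bind GATA and CACCC motifs of most erythroid genes. They take up iron through the transferrin receptor, build heme from it, and assemble a membrane skeleton of spectrin held to the anion exchanger band 3. In whole liver such cells are one population among hepatocytes, endothelial cells and Kupffer cells.

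Every one of the 8 genes had fewer gene body reads in either KO library than in either WT library. The KO mean ran from 30.4% of the WT mean in *Epb42* to 72.9% in *Ermap*. Among all active genes, which do not include *Gata1* and *Sptb*, both KO libraries lay below both WT libraries in 42.8%. Here the gene body value is the number of reads from 1 kb downstream of the transcription start site (TSS) to the end of the gene, scaled by the authors to library depth (normalized reads), and the promoter-proximal value is the number in the densest 50 bp window within 500 bp of the TSS. Active genes, of which there were 12705, had promoter-proximal reads and more than 4 normalized reads per kb of gene body on average. The study states this density for a fixed total of reads, which the table does not give, and here it was applied to the deposited scale, so that genes near it might be inactive by the study's own count. Fold changes are differences of log2(normalized reads + 1), KO minus WT, tested by limma over all active genes with Benjamini-Hochberg adjustment, and a gene was called at an adjusted p under 0.05 with a log2 fold change past 0.6 in either direction.

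Of the 8 genes, 6 were active. *Gata1*, at 2.66 normalized reads per kb over the 4 libraries, and *Sptb*, at 3.63, fell just under the threshold, and *Alas2*, at 4.50, and *Epb42*, at 4.71, just over it. The KO means of *Alas2* (2.71 per kb) and *Epb42* (2.20 per kb) were themselves under 4, so these genes were tested only through their WT level. For this reason, edgeR was also fitted to the recovered whole reads of all 20642 genes without this filter, a choice made after seeing the data. It called 7 of the 8 genes down in the gene body, all except *Ermap*, and none up. The planned limma fit without the filter, whose spread was estimated with rows near 0 included, called 1 of the 8 down (*Sptb*, adjusted p = 0.0416). There the adjusted p was 0.122 for *Alas2*, 0.0605 for *Slc4a1*, 0.0632 for *Klf1*, 0.0940 for *Epb42* and 0.0524 for *Tfrc*, and all 8 log2 fold changes stayed below 0. Over all 20642 genes, unfiltered edgeR called 8.74% down and 9.69% up, and unfiltered limma called 591 genes down and 406 up. In the fit over active genes 5 of the 6 tested members were called down and 0 up, where 11.4% of active genes were called down and 10.4% up.

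Two-sided exact permutation of 2 libraries against 2 cannot give a p under 0.333, so the values of the single libraries are given beside each test. In bulk nuclei, fewer cells of a type and less transcription per cell cannot be told apart.

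**Figure D1:**
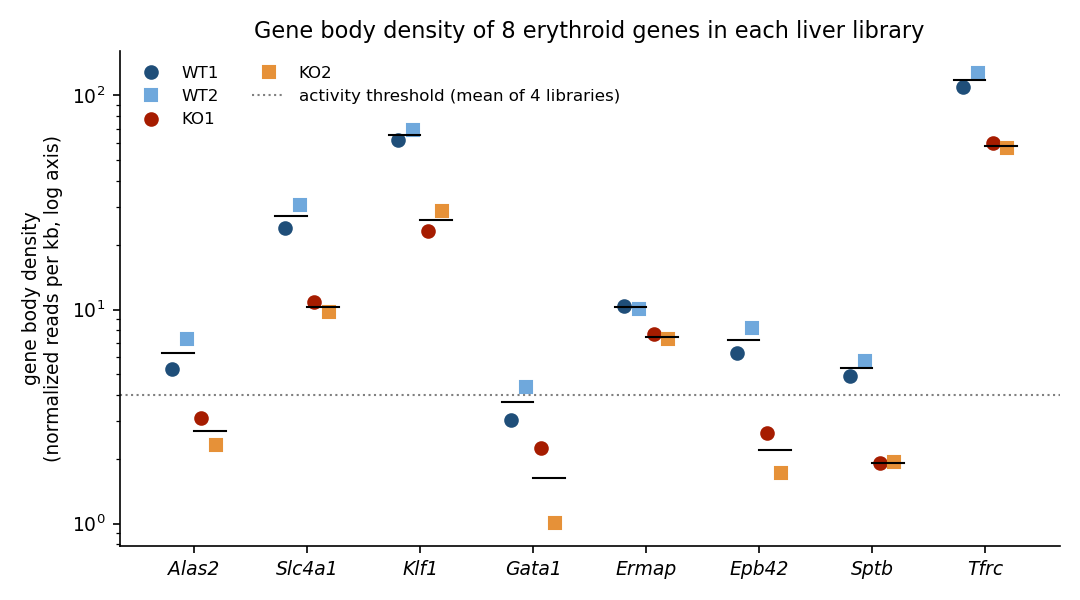
Gene body density in normalized reads per kb (log axis) of the 8 genes, with 1 point per library and a black line at the mean of the 2 libraries of a genotype. In every gene both KO points lie below both WT points, and the dotted line at 4 per kb shows how near *Alas2*, *Epb42*, *Sptb* and *Gata1* are to the activity threshold.

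The 2 transcription factors differed in level. *Klf1*, the erythroid Krüppel-like factor, lies on chromosome 8 of GRCm38 (mm10) from 84901982 to 84905291 on the plus strand. The WT libraries gave 147 and 163 normalized gene body reads, and the KO libraries 55.2 and 68.3. The log2 fold change was -1.32 (SE 0.22, limma adjusted p = 3.69e-05), and every KO to WT pair lay between -1.55 and -1.09. *Gata1*, whose protein opens the erythroid programme, lies on chromosome X from 7959260 to 7976663 on the minus strand. It was the sparsest of the 8, with 22.9 and 33 normalized gene body reads in the WT libraries and 17.0 and 7.59 in the KO libraries, the last from 5 reads. The groups did not overlap, but KO1 was closer to WT1 than to KO2 in fold. The edgeR fit without a filter gave *Gata1* a log2 fold change of -1.11 (adjusted p = 0.0467), and limma without the filter -1.20 (adjusted p = 0.273).

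*Alas2* encodes the erythroid form of the first enzyme of heme synthesis and lies on chromosome X from 150547417 to 150570622 on the plus strand. The WT libraries gave 117 and 162 normalized gene body reads, and the KO libraries 69.0 and 51.6. The log2 fold change was -1.19 (SE 0.24, limma adjusted p = 2.93e-04). Both KO values lay well under both WT values, with the WT libraries further apart from each other (117 against 162) than in *Klf1*. *Apex2* overlaps *Alas2* on the other strand, at 28.2 normalized reads per kb against 4.50 in *Alas2*. It had a gene body log2 fold change of -0.44 (adjusted p = 0.0222 from limma) and was not called. Whether its reads contribute to those on *Alas2* was not tested.

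*Slc4a1* encodes band 3, the chloride and bicarbonate exchanger of the red cell membrane, and lies on chromosome 11 from 102348820 to 102365281 on the minus strand. The WT libraries gave 372 and 477 normalized gene body reads, and the KO libraries 168 and 150. The log2 fold change was -1.40 (SE 0.17, limma adjusted p = 5.30e-07), with the KO libraries closer to each other than the WT libraries were.

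*Epb42* encodes protein 4.2, which ties band 3 to the skeleton, and lies on chromosome 2 from 121017891 to 121036877 on the minus strand. The WT libraries gave 110 and 143 normalized gene body reads, and the KO libraries 46.7 and 30.4. The log2 fold change of -1.71 (SE 0.26, limma adjusted p = 1.34e-05) was the lowest of the 6 active members. It ranged from -2.01 to -1.41 when single libraries were left out.

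*Sptb* encodes the erythroid beta spectrin chain and lies on chromosome 12 from 76580488 to 76710547 on the minus strand. Its gene body spans 129060 bp, by far the longest of the 8, so that a low density still rested on many reads. It had 634 and 741 normalized gene body reads in WT and 248 and 249 in KO, and edgeR without a filter gave a log2 fold change of -1.47 (adjusted p = 2.18e-20). *Plekhg3*, which overlaps *Sptb* on the other strand, was called down as well (gene body log2 fold change -0.62, adjusted p = 7.55e-05 from limma). The authors counted promoter-proximal reads on the coding strand.

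*Ermap* encodes a red cell adhesion protein that carries blood group antigens, and lies on chromosome 4 from 119175457 to 119190013 on the minus strand. The WT libraries gave 141 and 137 normalized gene body reads, and the KO libraries 104 and 98.7. The groups did not overlap, but the log2 fold change was -0.45 (SE 0.20, limma adjusted p = 0.0798), and the gene was not called. A gene transcribed the same way 13559 bp upstream, *AU022252*, at 70.7 normalized reads per kb against 8.87 in *Ermap*, had a log2 fold change of -0.69 (adjusted p = 5.74e-04 from limma). Whether polymerases running on from it contribute to the reads on *Ermap* was not tested.

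*Tfrc* encodes the transferrin receptor, which dividing cells of many types use and red cell precursors use most. It lies on chromosome 16 from 32608896 to 32632794 on the plus strand. The WT libraries gave 2495 and 2906 normalized gene body reads, and the KO libraries 1368 and 1295, the highest of the 8 in every library. The log2 fold change was -1.02 (SE 0.11, limma adjusted p = 1.86e-07), and the library pairs lay between -1.17 and -0.87.

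Per length, the levels were ordered *Tfrc* (117.9 ± 12.7 normalized reads per kb in WT, mean ± SD, n = 2 libraries), *Klf1* (65.4 ± 4.82), *Slc4a1* (27.4 ± 4.81), *Ermap* (10.3 ± 0.215), *Epb42* (7.22 ± 1.32), *Alas2* (6.28 ± 1.43), *Sptb* (5.33 ± 0.584) and *Gata1* (3.70 ± 0.941). Neighbours from *Epb42* to *Sptb* in this order did not differ beyond their spread. In KO the order was *Tfrc* (58.2 ± 2.26), *Klf1* (26.1 ± 3.93), *Slc4a1* (10.3 ± 0.791), *Ermap* (7.48 ± 0.275), *Alas2* (2.71 ± 0.552), *Epb42* (2.20 ± 0.658), *Sptb* (1.93 ± 0.0042) and *Gata1* (1.63 ± 0.878), and neighbours among the last 4 did not differ beyond their spread. Over the 4 libraries, *Tfrc* lay above 90.1% of all genes in gene body density and *Klf1* above 75.1%, while *Gata1* lay above 35.3%. The median active gene had 37.1 normalized reads per kb, more than 6 of the 8 genes.

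The promoter windows of these genes hold the letters that erythroid factors recognise in some cases only. The 250 bases upstream of the start were taken from RefSeq (GRCm38.p6) for the 7 members with an entry, *Slc4a1* not among them, and searched on both strands for GATA words (the letters GATA with A or T before and A or G after) and for CCNCNCCC as a CACCC-like word, matches of which may overlap. These 7 genes had 8 windows, as *Tfrc* has 2 starts. A GATA word was found in 4 of the 8 windows, those of *Alas2*, *Klf1*, *Ermap* and *Epb42*, and in 26.5% of all 32851 windows. The CACCC-like word was found in 5 of the 8, those of *Alas2*, *Gata1* and *Sptb* and both of *Tfrc*, and in 45.9% of all windows. The windows with a GATA word are printed, with the more upstream of the *Tfrc* windows, neither of which has one. They are given 5′ to 3′ on the strand of the gene, the last base next to the start, and capitals mark the words found. They lie at chrX:150547167-150547416 (plus strand) for *Alas2*, chr8:84901732-84901981 (plus) for *Klf1*, chr4:119189996-119190245 (minus) for *Ermap*, chr2:121036878-121037127 (minus) for *Epb42* and chr16:32608646-32608895 (plus) for *Tfrc*.
Alas2: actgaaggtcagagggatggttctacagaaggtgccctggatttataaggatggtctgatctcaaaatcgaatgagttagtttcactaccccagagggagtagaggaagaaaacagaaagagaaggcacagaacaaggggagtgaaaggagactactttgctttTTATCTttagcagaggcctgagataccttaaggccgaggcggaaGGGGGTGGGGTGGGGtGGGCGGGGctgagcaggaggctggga
Klf1: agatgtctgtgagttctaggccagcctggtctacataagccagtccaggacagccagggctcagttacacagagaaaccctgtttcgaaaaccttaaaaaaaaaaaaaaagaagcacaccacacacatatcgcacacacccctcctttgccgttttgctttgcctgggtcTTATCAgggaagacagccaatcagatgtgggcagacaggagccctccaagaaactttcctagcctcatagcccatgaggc
Ermap: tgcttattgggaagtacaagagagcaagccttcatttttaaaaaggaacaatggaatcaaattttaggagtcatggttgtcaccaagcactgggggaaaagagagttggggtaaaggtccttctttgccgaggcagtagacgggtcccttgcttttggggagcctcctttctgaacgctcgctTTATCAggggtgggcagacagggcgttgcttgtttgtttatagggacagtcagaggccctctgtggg
Epb42: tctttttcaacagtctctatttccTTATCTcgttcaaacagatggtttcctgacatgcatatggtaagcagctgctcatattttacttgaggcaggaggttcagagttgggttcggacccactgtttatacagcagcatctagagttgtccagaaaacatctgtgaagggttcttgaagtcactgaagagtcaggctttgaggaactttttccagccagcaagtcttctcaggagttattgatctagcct
Tfrc: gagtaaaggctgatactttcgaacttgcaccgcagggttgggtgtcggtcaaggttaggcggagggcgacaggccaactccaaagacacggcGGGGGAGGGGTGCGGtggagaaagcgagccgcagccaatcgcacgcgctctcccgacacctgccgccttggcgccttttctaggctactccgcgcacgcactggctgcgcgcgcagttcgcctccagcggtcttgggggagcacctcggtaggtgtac

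In all 4 windows the GATA word reads on the opposite strand to the gene. Its base furthest from the start lies 86 bp upstream in *Alas2*, 80 bp in *Klf1*, 67 bp in *Ermap* and 226 bp in *Epb42*. *Alas2* also has 4 overlapping or adjoining CACCC-like words between 42 and 19 bp upstream. With a GATA word, *Epb42* was at 30.4% of WT in the gene body, *Klf1* at 39.9%, *Alas2* at 43.2% and *Ermap* at 72.9%. Without one in a printed or searched window, *Sptb* was at 36.1%, *Gata1* at 43.9% and *Tfrc* at 49.3%. A relation between words and differences was not tested. The matches describe letters and not binding, and no factor was measured here.

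In the promoter-proximal window the KO mean was 44.4% of the WT mean in *Slc4a1*, 43.0% in *Klf1*, 48.3% in *Gata1* and 29.5% in *Sptb*. The gene body values of these genes were 37.5%, 39.9%, 43.9% and 36.1%. *Epb42* was at 0% and *Ermap* at 81.9% in the promoter-proximal window, but *Alas2* was at 134% and *Tfrc* at 112%. Calls were fewer than in gene bodies. In this region 0 of the 6 active members were called down and 0 up by limma, where 2.2% of active genes were called down and 25.8% up. At an unadjusted p under 0.05, limma had 3 lower (*Slc4a1*, *Klf1* and *Epb42*), and edgeR over active genes also called 0 in either direction. DESeq2 gave an adjusted p in this region for *Tfrc* only (0.732) and none for the other 5. Both KO libraries lay below both WT libraries in 5 of the 8 genes, namely *Slc4a1*, *Klf1*, *Gata1*, *Epb42* and *Sptb*. The share over active genes, which do not include *Gata1* and *Sptb*, was 6.72%. Without the activity filter edgeR called 0 of the 8 down, where it called 1.24% of all genes down.

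Counts in the promoter-proximal window were small for 7 of the 8 genes. *Slc4a1* had 12.6 and 13 normalized promoter-proximal reads in WT and 5.30 and 6.07 in KO (log2 fold change -1.05, SE 0.48, limma adjusted p = 0.0821). *Klf1* had 11.5 and 15 in WT and 5.30 and 6.07 in KO (-1.08, SE 0.48, adjusted p = 0.0733). In both genes the KO values were close together and below both WT values.

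*Epb42* had 2.29 and 1 normalized promoter-proximal reads in WT and none in KO, *Gata1* had 5.74 and 4 against 3.18 and 1.52, and *Sptb* had 12.6 and 10 against 2.12 and 4.55. *Ermap* had between 1.06 and 2 in every library. Differences of this size were not detectable at this depth in the last gene. *Alas2* went the other way between single libraries, with 11.5 in WT1 but 2 in WT2, and with 7.43 and 10.6 in the KO pools, so that its log2 fold change of 0.69 was -0.33 without WT2 and 1.72, then called up (adjusted p = 0.0285), without WT1.

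*Tfrc* alone was deep in this region. It had 517 and 355 normalized promoter-proximal reads in WT1 and WT2, against 324 and 654 in KO1 and KO2, and the groups overlapped (log2 fold change 0.10, SE 0.30, limma adjusted p = 0.798). The gene body of *Tfrc* was lower in KO while its promoter-proximal reads lay on both sides of WT, with KO2 the highest library and KO1 the lowest.

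The median difference over all active genes was 0.56 on the log2 scale in this region, against -0.09 in the gene body, and the median over the active members was -0.60 against -1.26. Relative to the median of active genes, the promoter-proximal differences were -1.61 for *Slc4a1*, -1.64 for *Klf1*, -1.92 for *Epb42*, -0.72 for *Ermap*, -0.46 for *Tfrc* and 0.13 for *Alas2*. With median-of-ratios scaling within the region, which sets that median near 0, *Slc4a1* (adjusted p = 0.0165) and *Klf1* (adjusted p = 0.0152) were called down and *Tfrc* turned from 0.10 to -0.47 (adjusted p = 0.208). This scaling changed the calls of the whole region from 3282 up and 280 down to 634 up and 942 down. In the gene body the same scaling moved the median by 0.08 and changed no call of a member.

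**Figure D2:**
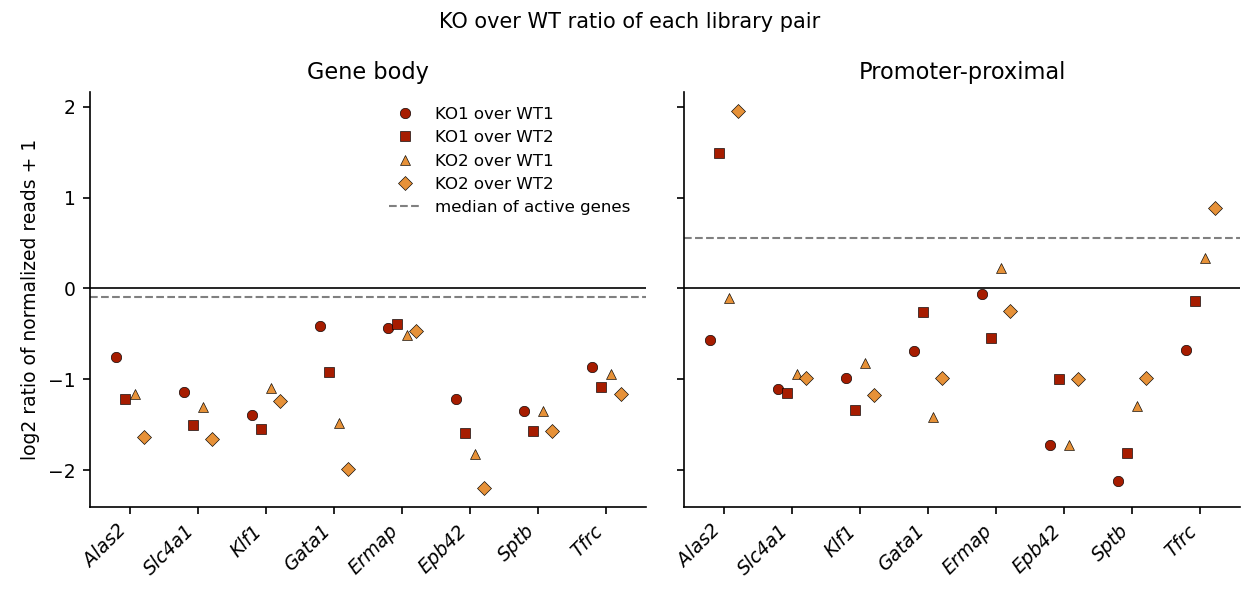
Log2 ratio of normalized reads + 1 for each KO library over each WT library in gene bodies (left) and promoter-proximal windows (right), with the median of active genes dashed (-0.09 and 0.56). The 4 points of a gene share libraries. In gene bodies all points lie below 0, and in promoter-proximal windows those of *Alas2*, *Ermap* and *Tfrc* lie on both sides of it.

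The pausing index, the promoter-proximal density divided by the gene body density, was low in several of the erythroid genes. In the order WT1, WT2, KO1, KO2, *Klf1* had 3.70, 4.36, 4.55 and 4.21, and *Slc4a1* had 10.5, 8.43, 9.79 and 12.5. The median of active genes was 49.3, 44.3, 61.1 and 85.0. *Slc4a1*, *Klf1*, *Gata1*, *Ermap* and *Epb42* lay below this median in every library. *Tfrc*, at 95.0, 55.9, 108 and 231, lay above it in every library. The index of *Ermap* and *Epb42* rested on at most 2 promoter-proximal reads in any library, and that of *Gata1* on at most 5. The index of *Alas2* ranged from 5.48 to 91.4 on 2 to 10 promoter-proximal reads per library. No test was made on the index.

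Around *Slc4a1* the deposited list of enhancers, found from the pooled reads of all 4 libraries as transcribed regions outside genes, named *Slc4a1* as the closest gene of 2 entries. None of the other 7 genes was the closest gene of an entry or had one within 50 kb. The nearer region, chr11:102371949-102377496, began 6.67 kb upstream of the *Slc4a1* start, had 2 centers of divergent transcription and was not in the FANTOM5 set. Public contact data collected by the authors (4DGenome) join it to *Slc4a1* in Ter119 cells, which are red cell precursors, and in embryonic stem cells. The farther region, chr11:102379440-102382532, began 14.2 kb upstream and had 1 center. *Bloodlinc*, a long noncoding RNA known from red cell precursors and transcribed on the strand of *Slc4a1*, lies inside the nearer region, 10.3 to 11.7 kb upstream. It had no row of its own in the table. The list holds no reads of single libraries, so whether these regions differed between WT and KO was not analysed here.

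**Figure D3:**
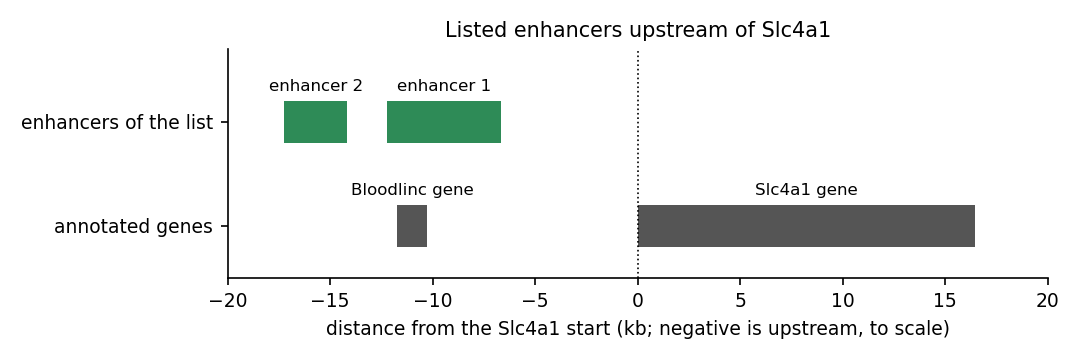
Position of the 2 listed enhancers and of annotated genes relative to the *Slc4a1* start, in kb and to scale, with upstream negative. The nearer enhancer, from 6.67 to 12.2 kb upstream, covers the whole of *Bloodlinc*.

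Counting closest genes and contacts together, 17 of the 2282 enhancers were linked to one of the 8 genes. *Tfrc* had 12 contact links, all to other chromosomes and all with Th1 cells among their sources, and *Klf1*, *Epb42* and *Sptb* had 1 each. *Alas2*, *Gata1* and *Ermap* had 0.

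Other genes of the red cell programme were taken from lists. In the list of the red cell membrane and skeleton, 7 of 14 genes were active, of which limma called 3 down and 1 up in the gene body. Over all active genes limma called 11.4% down and 10.4% up. *Dmtn*, which encodes an actin bundling protein, had a log2 fold change of -0.80 (adjusted p = 8.90e-04), and *Gypc*, glycophorin C, rose by 0.77 (adjusted p = 3.37e-05). *Gypc* is also made outside the red cell lineage.

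The edgeR fit without the activity filter called 10 of these 14 genes down and 1 up, where it called 8.74% of all genes down and 9.69% up. The 7 inactive genes of the list were all called down, those named here being chosen after their values were seen, with log2 fold changes from -2.08 in *Rhd* to -0.69 in *Tmod1*. *Ank1*, the ankyrin that joins spectrin to band 3, had 750 and 855 normalized gene body reads in WT and 378 and 372 in KO (log2 fold change -1.10). The blood group genes *Rhd*, *Rhag* and *Kel* and the skeletal *Add2* had between 57.4 and 160 normalized reads in WT and between 13.7 and 41.4 in KO.

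In the list of globins and red cell cytoplasm, 4 of 10 active genes were called down by limma and 0 up (11.4% and 10.4% over active genes). Unfiltered edgeR called 6 of 17 down and 0 up (8.74% and 9.69% over all genes). *Hemgn*, a nuclear regulator of erythroid differentiation, had a gene body log2 fold change of -2.07 (adjusted p = 2.97e-04), but was active only through WT (7.10 normalized reads per kb against 1.91 in KO), and unfiltered edgeR gave -1.78 (adjusted p = 1.13e-06). *Tspan33* had -1.59 (adjusted p = 5.57e-08) and *Fam46c* -1.28 (adjusted p = 4.21e-06). The embryonic globins *Hba-x*, *Hbb-bh1* and *Hbb-y* were at 0 reads in both regions of all 4 libraries.

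Adult beta globin reads were sparse. *Hbb-bs* had 29.8 and 40 normalized promoter-proximal reads in WT and 12.7 and 7.59 in KO (log2 fold change -1.71, SE 0.43, limma adjusted p = 1.37e-03), and *Hbb-b1* had 12.6 and 12 against 8.49 and 3.04 (-1.10, adjusted p = 0.0702). These 2 genes are near copies whose reads may be shared or lost in counting, and less than 1 kb of each is left for the gene body. The alpha globin genes and *Ahsp* were not found in the table under these names.

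In the list of heme synthesis and mitochondrial transport, 4 of 12 active genes were called down in the gene body and 0 up. The shares over active genes were 11.4% and 10.4%. The differences were smaller than in *Alas2*. *Cpox* (-0.73, adjusted p = 5.40e-05) encodes an enzyme of heme synthesis, and *Slc25a38* (-0.67, adjusted p = 5.30e-04) a glycine carrier of the mitochondrion. Hepatocytes also make heme, and *Alas1*, the form of the first enzyme used outside red cells, had values that overlapped between the groups.

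The list of erythroid regulators did not move one way. Of 12 active genes limma called 1 down and 4 up in the gene body (11.4% and 10.4% over active genes), and the median was 0.17. Unfiltered edgeR called 2 of the 13 genes down and 4 up (8.74% and 9.69% over all genes). The inactive *Gfi1b* was called down by this edgeR fit in the gene body (-1.11, adjusted p = 3.66e-03) and the promoter-proximal window (-2.81, adjusted p = 0.0145). *Myb*, a factor of blood progenitors, had 577 and 631 normalized gene body reads in WT and 147 and 147 in KO (log2 fold change -2.03, SE 0.15, adjusted p = 5.34e-10), and it was lower in the promoter-proximal window too (-1.90, adjusted p = 2.93e-03). *Kit*, the stem cell factor receptor, rose from 2397 and 2473 to 4851 and 4745 (0.98, adjusted p = 1.01e-07), and *Tal1* from 774 and 955 to 1525 and 1473 (0.80, adjusted p = 1.55e-05). *Lmo2* and *Epor* were the others called up. *Kit*, *Tal1* and *Lmo2* are known in endothelial or mast cells as well as in the red cell lineage.

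Among genes of iron uptake and storage, 2 of 10 were called down and 1 up in the gene body, close to the shares over all active genes (11.4% down and 10.4% up). *Steap3*, which reduces iron taken up with transferrin, had -1.11 (adjusted p = 1.78e-07), *Tfr2*, a second transferrin receptor that hepatocytes also use, had -0.97 (adjusted p = 3.27e-07), and *Ftl1*, ferritin light chain, rose by 0.94 (adjusted p = 2.82e-06).

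In the promoter-proximal window, limma called 5 of the 41 active genes of the regulator, heme, membrane and cytoplasm lists down and 8 up, where 2.2% of all active genes were called down and 25.8% up. *Hbb-bs*, *Myb*, *Tspan33* (-1.04), *Lmo2* (-1.86) and *Hemgn* (-1.65) were those called down, with at most 51.6 normalized reads in any library. *Lmo2* had 2.29 and 3 normalized reads in WT and *Hemgn* 2.29 and 2, both had 0 in KO, and unfiltered edgeR called neither (adjusted p = 0.151 and 0.221). *Dmtn* (2.27), *Gypc* (1.86) and *Blvrb* (1.23) were among those called up. *Dmtn* and *Lmo2* were called in opposite directions in the gene body. *Dmtn* had 1.15 and 2 normalized promoter-proximal reads in WT and 7.43 and 16.7 in KO. These values include the median rise of 0.56 of the region.

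Markers of other cells moved as well, and their part in the differences of the erythroid genes was not tested. Summed gene body reads of 8 hepatocyte markers were 349863 and 349462 in WT and 169559 and 164746 in KO. Of the 8, limma called 5 down, among them *Apoa1* (-1.76) and *Hnf4a* (-1.53), where it called 11.4% of active genes down. The hepatocyte sum in KO was 47.8% of WT. The sum over the 8 erythroid genes was 45.8%. In WT *Tfrc* held 2495 and 2906 of the 4040 and 4762 reads of these 8, and *Tfrc* alone was at 49.3%. The sum over the 57 other genes of the 4 erythroid lists was 94.5%, with 70.9% in the membrane list, 79.5% in the globin and cytoplasm list, 95.3% in the heme list and 121% in the regulator list. Such sums follow the genes with most reads. *Epb41* alone held 9883 and 9817 of the 13674 and 14111 reads of the membrane list in WT. By gene, unfiltered edgeR called 22 of the 57 down and 5 up, where it called 8.74% of all genes down and 9.69% up. The sum of 5 endothelial markers was 169% of WT, with 3 called up (10.4% over active genes by limma), *Kdr* (0.85) the furthest. No Kupffer cell marker of 11 and no cell division gene of 12 was called in the gene body by limma or edgeR, the Kupffer sum being 22021 and 22812 in WT and 28738 and 23982 in KO. At an unadjusted p under 0.05, limma had 4 of the Kupffer cell markers higher in KO and 5 of the cell division genes lower, all of them short of the fold threshold.

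Other blood lineages differed from one another. Of 8 active granulocyte precursor genes, limma called 5 down in the gene body and 0 up (11.4% and 10.4% over active genes). *Mpo* (-2.36), *Ltf* (-1.92) and *S100a9* (-1.91) differed most, and their list summed to 871 and 1074 normalized reads in WT and 749 and 574 in KO. *Mpo* and *Ltf* were active only through WT, with KO means of 1.41 and 3.00 per kb. Unfiltered edgeR called both down (-2.30 and -1.97), and 4 of the 10 genes of the list, where it called 8.74% of all genes down. Of 10 lymphoid genes, limma called 4 of the B lineage down in the gene body and 3 of the T lineage up (11.4% and 10.4% over active genes). *Ebf1* was at -1.55 (KO mean 3.61 per kb, so active only through WT), *Pax5* at -1.31 and *Cd3g* at 1.02. *Cd79a* (-0.38) and *Ms4a1* (0.01) of the B lineage and *Cd3d* (0.60) of the T lineage were not called. In the promoter-proximal window limma called *Ms4a1* up (1.98), which unfiltered edgeR did not (adjusted p = 0.0894). Of 7 megakaryocyte genes only *Itga2b* was active (0.15, adjusted p = 0.459), and the list summed to 305 and 348 in WT and 339 and 375 in KO. Of 12 genes not expected in liver, *Gnat1* alone was active, and 5 had no gene body reads in any library.

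**Figure D4:**
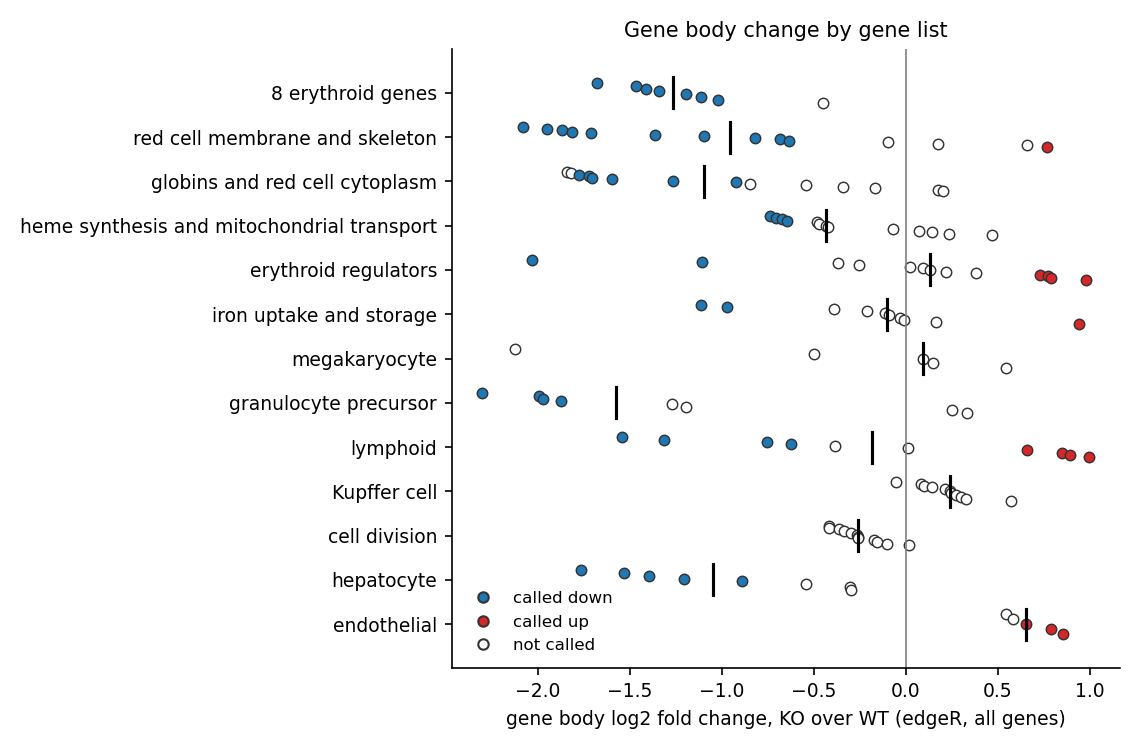
Gene body log2 fold change (KO over WT, edgeR over all genes) of each listed gene that had reads in both genotypes, 1 point per gene, with a black bar at the median of the list. The 8 erythroid genes (median -1.27) and the red cell membrane genes (median -0.96) lie mostly left of 0, the hepatocyte markers (median -1.05) and granulocyte genes (median -1.57) too, and the endothelial markers right of it.

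Genes outside these lists followed the same pattern over the 4 libraries. The centred log2 gene body profile, averaged over the 6 active members, was compared with 11921 active genes that had a mean of at least 50 normalized gene body reads. The nearest by Euclidean distance were *Acat3* (0.0708), *Akap5* (0.0819), *Socs2* (0.0843), *Inhba* (0.102) and *Lrg1* (0.105). *Socs2*, a suppressor of cytokine signalling, had 889 and 1105 normalized gene body reads in WT and 435 and 401 in KO. None of the 5 was in an erythroid list. The profile is set by 4 libraries only, in which WT2 was highest and KO2 lowest on average, and likeness over so few points is a description.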

How the data were processed

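Genotype, replicate number and day were taken from the labels. Per the study's methods, the authors trimmed reads with cutadapt, mapped them to the mm10 build (Bowtie2), dropped rRNA reads and reads with mapping quality under 10, and counted them on RefSeq transcripts with their tool NRSA. The deposited values of WT2 are read counts. The deposited values of WT1, KO1 and KO2 are signal, counts that the authors multiplied by 1 factor per library (1.15, 1.06 and 1.52). Divided by this factor, 100% of values were whole (within 0.01 read). Of 20820 transcripts, 1 row was kept per symbol, that with most promoter-proximal reads on average. Enhancers were called by the authors on pooled reads.

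Tests used limma 3.58.1 (trend, empirical Bayes) in R 4.3.3 on log2(normalized reads + 1), with edgeR 4.0.16 and DESeq2 1.42.0 on recovered reads as alternatives, and were checked on simulated counts. Figures used matplotlib 3.10.9. The 8 genes, the lists and the tests were chosen with earlier results of these data known. Genes named are the 8, in each list and region the 3 active called genes with the largest fold change, erythroid genes at 0 throughout, the 5 nearest profiles and *Hdac3*. Others were named after their values were seen. Replicate numbers were not used to pair libraries in the main tests. Some list genes that this rule names are not reported here.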

Additional observations from a re-analysis of the deposited data

How the results depend on the processing

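Gene body log2 fold changes of the 6 active members kept their direction under all alternatives tried. *Gata1* and *Sptb* were fitted only without the activity filter, by edgeR and limma, and were below 0 in both. Without the activity filter, limma called 406 genes up and 591 down and 1 of the 8 genes (*Sptb*) down. A density over 10 per kb left 3 of the 8 to test, all 3 called down. Without the fold threshold 2161 genes were called up and 2807 down, and unfiltered edgeR called 2001 up. Leaving out single libraries gave 1010 to 1500 up, 1308 to 1588 down and 5 of the 8 genes down each time.

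Promoter-proximal results moved more. Without the filter 0 genes were called up and 0 down by limma. DESeq2 called 168 down and 2650 up, median-of-ratios scaling 634 up and 942 down, and TMM scaling 617 up and 941 down, each of these scalings with 2 of the 8 genes down. DESeq2 gave no adjusted p for 5 of the 6 active members. Leaving out single libraries gave 319 to 3522 up (fewest without KO2) and 83 to 182 down, 0 to 1 of the 8 genes up (*Alas2*, without WT1) and 0 to 1 down (*Epb42*, without WT2 or without KO1). Over single libraries left out, *Alas2* ranged from -0.33 (without WT2) to 1.72, *Ermap* from -0.40 to 0.085 (without WT2) and *Tfrc* from -0.40 (without KO2) to 0.61, and -0.17 without WT2. *Tfrc* turned to -0.47 under both scalings. The cause was not tested.

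Same-numbered libraries shared no common deviation (correlation of deviations 0.02 in gene bodies and -0.11 in promoter-proximal windows). With the replicate block 1772 genes were called up and 177 down in promoter-proximal windows, and with the numbers crossed, a pairing added after seeing the data, 4861 and 399. In gene bodies the block gave 1325 up and 1448 down.

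Depth limits the promoter-proximal values, which for 7 of the 8 genes rest on 0 to 15 reads per library. With 2 pools per genotype, single mice cannot be compared.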
